A study of Mus musculus with 3 samples.

Results

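Cthrc1, Postn, Tnc, Fn1, Sparc, Lox, Loxl1 and Loxl2 are 8 genes of matrix building and repair, taken by symbol from the 31053 features counted in every library, and all 8 were found. They were proposed from earlier results of these same libraries, in which Cthrc1 stood high in wild-type stromal cells and in the dividing ones among them, so the stromal and cell-cycle values below describe that choice and test nothing. Single-cell RNA was measured in stromal and vascular cells of mice from fat labelled as inguinal, a subcutaneous depot, in 3 libraries, 1 per genotype. The wild-type library was TERT +/+, and its title also reads PBS, a term left unexplained in the labels. The Pdgfra-Cre library was Pdgfra-Cre; TERT fl/fl and the Pdgfrb-Cre library Pdgfrb-Cre; TERT fl/fl, in which floxed Tert, the catalytic subunit of telomerase, is removed wherever the promoter of the receptor gene Pdgfra or Pdgfrb drives Cre. The labels give neither age, sex nor the number of animals, and no control library carries a Cre. With 1 library per genotype, genotype and library cannot be told apart, no test between genotypes was made, and every difference is one between libraries.

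The matrix between cells is laid down as soluble proteins that are then assembled and fixed. Fibronectin (Fn1) is stretched into fibrils on the cell surface by integrins and gives collagen a scaffold. Periostin (Postn), tenascin C (Tnc), SPARC and CTHRC1 are matricellular proteins: they bind matrix and receptors and are best known from development, wound repair and fibrosis more than from resting tissue. Lysyl oxidase (Lox) and its relatives Loxl1 and Loxl2 oxidise lysines of collagen and elastin so that the fibres cross-link. In adipose tissue these genes belong mainly to the Pdgfra-positive stromal cells, which include the precursors of fat cells, and to the mural cells, the pericytes and smooth muscle cells around vessels.

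On GRCm38 the genes lie on 8 different chromosomes, so they share no locus. Of 7 of them, Cthrc1 is at chr15:39076932-39087121, Postn at chr3:54361109-54391037, Tnc at chr4:63959785-64047015, Fn1 at chr1:71585520-71653200, Sparc at chr11:55394500-55423183, Loxl1 at chr9:58287738-58313186 and Loxl2 at chr14:69609068-69695834, in the GENCODE M21 annotation. RefSeq promoter sequence on GRCm38.p6 was matched for 3 of the 8 genes. These 3 are matricellular genes, each lower in the stromal cells of both Cre libraries than in wild type. The 250 bases before the start site of each matched gene are shown. They read 5′ to 3′ on the gene's strand, Postn from chr3:54360857-54361106 on the plus strand, Tnc from chr4:64047016-64047265 on the minus strand and Sparc from chr11:55420081-55420330 on the minus strand, and capitals mark the motif matches.
Postn: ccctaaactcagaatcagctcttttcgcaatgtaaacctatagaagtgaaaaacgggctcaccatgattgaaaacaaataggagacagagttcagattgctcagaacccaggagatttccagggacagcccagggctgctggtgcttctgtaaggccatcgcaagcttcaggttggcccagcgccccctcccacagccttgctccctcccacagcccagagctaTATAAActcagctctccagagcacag
Tnc: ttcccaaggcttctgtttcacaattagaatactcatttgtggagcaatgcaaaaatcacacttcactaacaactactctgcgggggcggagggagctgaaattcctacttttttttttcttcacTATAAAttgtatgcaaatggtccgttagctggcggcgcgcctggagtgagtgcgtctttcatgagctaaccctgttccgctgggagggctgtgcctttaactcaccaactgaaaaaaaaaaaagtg
Sparc: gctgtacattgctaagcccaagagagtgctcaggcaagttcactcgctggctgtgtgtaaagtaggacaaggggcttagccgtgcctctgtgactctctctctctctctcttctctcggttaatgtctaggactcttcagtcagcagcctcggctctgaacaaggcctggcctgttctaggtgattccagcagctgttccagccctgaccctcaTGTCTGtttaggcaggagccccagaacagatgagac
The windows were searched on both strands for TATAAA (the TATA box), TGAGTCA (AP-1), GGAATG (TEAD), CAGACA (SMAD) and CCAAT, none of which overlapped another. For Postn and Tnc, which have a further RefSeq start each, the window nearest the main GENCODE start is shown; the further Postn window held none of the motifs and the further Tnc window held TATAAA 205 and CAGACA 71 bases before its start. In the windows shown, TATAAA began 26 bases before the start site in Postn and 126 bases before it in Tnc. CAGACA was found in Sparc, as TGTCTG on the printed strand, 36 bases before the start. Of 32851 RefSeq windows of the same length, 12.4% hold TATAAA, 17.1% CAGACA, 4.46% TGAGTCA, 12.6% GGAATG and 33.8% CCAAT. The matches describe these letters and are not evidence of binding.

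The libraries held 13352288 to 30826733 unique molecular identifiers (UMIs), counts of single captured molecules, and 1409 to 3903 cells each passed filters. Each pair of libraries shared 1 or 2 kept barcodes. Stromal cells, called so by their RNA markers, numbered 250 in wild type, 621 in Pdgfra-Cre and 573 in Pdgfrb-Cre, the order kept wherever 3 values are listed, with medians of 1663.5, 9677 and 10521 UMIs. All 13 stromal markers were seen in the stromal class of every library. Tert itself had 14, 7 and 10 UMIs in all kept cells, too few to check the genotypes. Markers of T cells summed to 266, 7.88 and 21.8 CPM (UMIs scaled to 1000000 for the class) in the stromal class, and those of B cells to 131, 2.80 and 12.1, so the wild-type stromal class is both the shallowest and the one with the most lymphocyte RNA. The Pdgfra-Cre library stood apart in its stroma. Wt1 was seen in 344 of its 621 stromal cells against 1 of 250 and 1 of 573, Tcf21 in 248 against 1 and 3, and 123 mesothelial-like cells, the lining type of internal cavities, occurred in that library and in neither of the others. As background, Wt1 and a mesothelial covering are known from visceral more than subcutaneous fat. The depot of the Pdgfra-Cre library is thus in doubt despite its label, and genotype, library and depot cannot be told apart in any of its values. The stromal cells fell in 4 clusters found without the 8 genes and without cell-cycle genes: cluster 3 was 578 Pdgfra-Cre cells and 6 Pdgfrb-Cre cells, cluster 8 was 335 Pdgfrb-Cre and 20 Pdgfra-Cre cells, cluster 13 was 216 wild-type cells with 8 and 19 others, and cluster 11 was spread over all libraries with 34, 15 and 213 cells. Different clusters therefore hold most of the class in each library, and the part of depth, lymphocyte RNA and cluster makeup in the differences below was not tested beyond the values given.

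Cthrc1, a secreted protein known for injured arteries and for Wnt planar polarity signalling, was high in wild-type stroma and low in both Cre libraries. It had 310, 15 and 152 UMIs, which is 359 (320 to 401), 2.63 (1.47 to 4.33) and 24.7 (21 to 29.0) CPM, where brackets hold 95% exact Poisson intervals. All intervals cover counting error only, with UMIs taken as independent, and the spread between cells and between animals is not in them. Pdgfra-Cre was 137-fold lower than wild type (interval 81.6 to 247) and Pdgfrb-Cre 14.5-fold lower (11.9 to 17.7). The intervals of the 3 libraries do not overlap. At least 1 UMI of Cthrc1 was seen in 61, 5 and 26 stromal cells. In T cells, which should lack the gene, it was seen in 4 of 657, 0 of 149 and 1 of 1552 cells, at 3.02 CPM or less. Medians there were 5228, 5697 and 6051 UMIs. The Pdgfra-Cre stromal level is no higher than that of wild-type T cells, but 8 of their 11 Cthrc1 UMIs lay in 1 cell. Whether it stands above the background of its own library was not tested.

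Postn, which helps collagen fibrils assemble, had 450, 387 and 1338 UMIs, or 521 (474 to 572), 67.8 (61.2 to 74.9) and 218 (206 to 230) CPM. It was 7.69-fold lower in Pdgfra-Cre (6.70 to 8.83) and 2.39-fold lower in Pdgfrb-Cre (2.15 to 2.66). Single cells carry much of this: 1 Pdgfra-Cre cell held 129 of the 387 UMIs and 1 Pdgfrb-Cre cell 196 of the 1338, while the highest wild-type cell held 36. Without the highest cell of each library the log2 ratio, with 10 CPM added on both sides, was -3.17 in Pdgfra-Cre in place of -2.77. Tnc, a large multi-armed glycoprotein of wounds and growing tissue, had 50, 0 and 2 UMIs, or 57.9 (43.0 to 76.3), 0 and 0.326 CPM. A floor of 3 counts over the class puts Pdgfra-Cre under 0.526 CPM, 110-fold under the wild-type point value. With the counting error of both libraries, the exact interval of the ratio to wild type reaches up to 0.0116. This rests on 4 wild-type cells with 33, 13, 3 and 1 UMIs. Without the 2 cells over 10 UMIs, the log2 ratio of Tnc is -0.56 in Pdgfra-Cre and -0.51 in Pdgfrb-Cre, and the gene falls under the level set for a call. Sparc, a collagen-binding protein of most matrix-making cells, was at 6254 (6089 to 6423), 2229 (2190 to 2268) and 2815 (2773 to 2858) CPM, 2.81-fold lower in Pdgfra-Cre and 2.22-fold lower in Pdgfrb-Cre.

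Fn1 separated the 2 Cre libraries. It stood at 2645 (2538 to 2756), 434 (417 to 451) and 2954 (2911 to 2998) CPM, 6.10-fold lower in Pdgfra-Cre (5.76 to 6.45) and 1.12 times wild type in Pdgfrb-Cre (1.07 to 1.17). The wild-type and Pdgfrb-Cre levels lie close together and Pdgfra-Cre is far below both. Tags at the 3′ end of a transcript do not separate the splice forms of Fn1 or Tnc.

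The cross-linking enzymes did not move as a group. Lox, the founding lysyl oxidase, was at 131 (108 to 157), 167 (157 to 178) and 163 (153 to 173) CPM, slightly above wild type in both Cre libraries. Loxl1, known for elastic fibres, was at 594 (544 to 648), 185 (174 to 197) and 486 (469 to 504) CPM, 3.21-fold lower in Pdgfra-Cre (2.88 to 3.57). Loxl2, which acts on basement membrane and fibrillar collagen, was at 229 (198 to 264), 124 (115 to 134) and 202 (190 to 213) CPM. Of the 3 enzymes, Loxl1 alone passed a 2-fold difference, and in Pdgfra-Cre only.

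**Figure D1:**
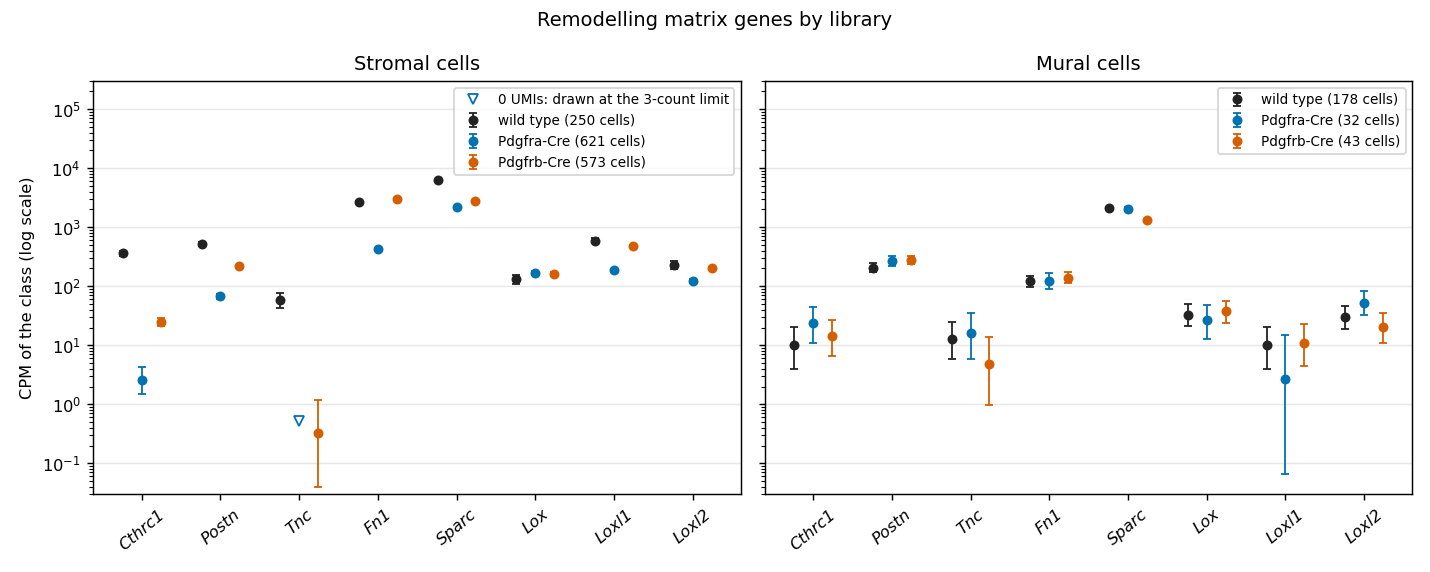
CPM of the class on a log scale for the 8 genes in stromal cells (left) and mural cells (right), with the point for each library and its 95% exact Poisson interval; the open triangle marks 0 UMIs drawn at the 3-count limit. The stromal points spread apart for Cthrc1, Postn and Tnc, with Cthrc1 at 359, 2.63 and 24.7, while the mural intervals of Cthrc1, Postn, Tnc and Fn1 overlap between libraries.

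By the rule of at least 2-fold after adding 10 CPM, among genes with at least 50 CPM in either library, 6 of the 8 genes were lower in Pdgfra-Cre stromal cells (Cthrc1, Postn, Tnc, Fn1, Sparc and Loxl1) and none was higher. Over all 3392 genes compared, 7.4% were lower and 11.7% higher. The median log2 ratio was -2.11 over the 8 genes and 0.11 over all genes. In Pdgfrb-Cre 4 of the 8 were lower (Cthrc1, Postn, Tnc and Sparc) and none was higher, against 4.21% lower and 10.4% higher of 3278 genes. There the medians were -0.72 and 0.016. Both comparisons use the same wild-type library, and since the genes were chosen on these contrasts nothing is read from the shares. Leaving mitochondrial and ribosomal protein genes out of the totals moved the higher share of all calls in Pdgfra-Cre from 61.3% to 50.4% and left 6 of the 8 genes lower.

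Depth was evened by drawing 1000 UMIs from each stromal cell, which left out 34, 13 and 3 shallower cells. Cthrc1 was then seen in 44 of 216 wild-type cells (20.4%), 0 of 608 Pdgfra-Cre cells and 4 of 570 Pdgfrb-Cre cells (0.702%). By a floor of 3 cells, the 0 allows up to 0.493% of cells with a UMI at this drawn depth. Without thinning the shares were 24.4%, 0.805% and 4.54%. Postn was seen in 31.0%, 3.13% and 8.95% of thinned cells (36.8%, 13.4% and 23.6% unthinned), and Fn1 in 77.3%, 16.1% and 69.5% (84.8%, 31.6% and 85.2%). Sparc was seen in 89.8%, 79.4% and 79.5%, so its difference is one of amount in most cells more than of cells with any UMI. Lox was seen in 11.1%, 13.3% and 14.6%, Loxl1 in 31.9%, 13% and 31.8% and Loxl2 in 19.9%, 10.7% and 15.8%. In thinned T cells every gene was seen in at most 1.87% of cells. At this depth 30.1% of wild-type stromal cells had UMIs of at least 4 of the 8 genes, against 2.14% and 8.77%, and the 8 genes together took 9.84, 2.78 and 6.0 of each 1000 UMIs.

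**Figure D2:**
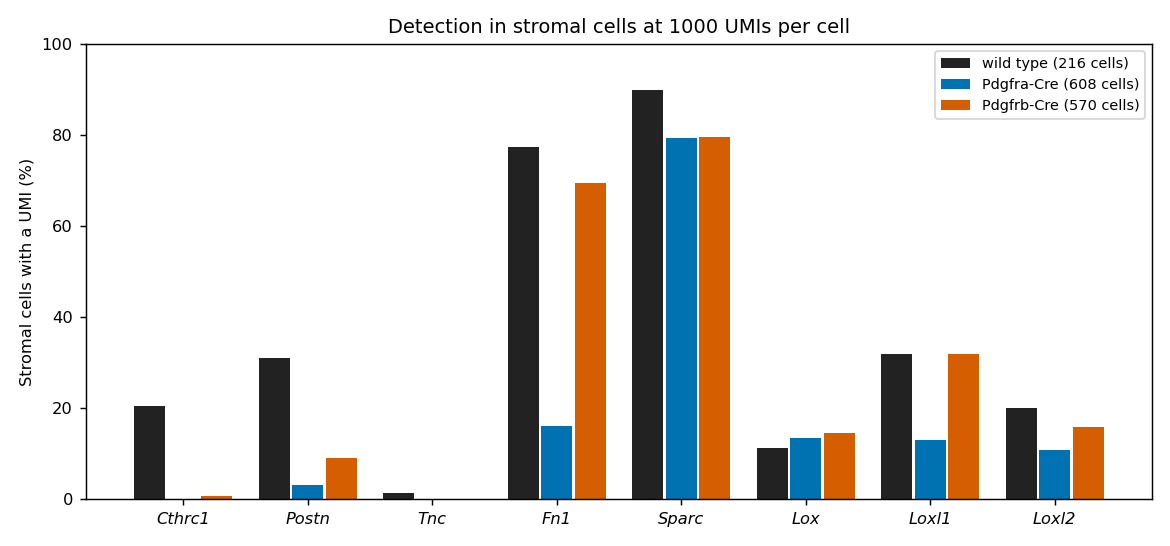
Percent of stromal cells with at least 1 UMI of each gene after every cell was thinned to 1000 UMIs, 1 bar per library. Cthrc1 and Postn bars are tallest in wild type, at 20.4% and 31.0%, while Sparc and Lox differ little between libraries.

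Within clusters the picture changed for some genes. Cthrc1 was at 439 CPM (391 to 491) in wild-type cluster 13 and at 45.7 (19.7 to 90.1, 8 UMIs) in wild-type cluster 11. In Pdgfrb-Cre it was at 28.5 (23.5 to 34.1) in cluster 8, 18.5 (13 to 25.6) in cluster 11 and 0 UMIs in the 19 cells of cluster 13. Most of the wild-type level therefore lies in cluster 13. Clusters 11 and 13 both hold cells of every library. The Cthrc1 intervals of wild type and Pdgfrb-Cre overlap in cluster 11. They do not in cluster 13, where that of Pdgfrb-Cre is 0 to 38.0 CPM. Postn in cluster 13 was at 620 (563 to 682) in wild type and 134 (71.4 to 229) in the 19 Pdgfrb-Cre cells. Postn in cluster 11 was not highest in wild type: it was at 131 (83.3 to 197) in wild type, 54.3 (21.8 to 112) in Pdgfra-Cre and 280 (257 to 304) in Pdgfrb-Cre, or 182 (163 to 202) there without the cell that held 196 UMIs, where the interval overlaps that of wild type. Loxl1 was lowest in wild type in that cluster, at 143 (92.5 to 211), 403 (301 to 529) and 294 (270 to 319). The Pdgfra-Cre value there rests on 15 cells, and 1 of them held 25 of the 52 Loxl1 UMIs. Sparc stayed highest in wild type in cluster 11, at 6007 (5649 to 6382), 2801 (2519 to 3105) and 3475 (3393 to 3559).

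Cluster 3, the Wt1- and Tcf21-rich stroma of the Pdgfra-Cre library, carried most of the low values of that library. It had Fn1 at 262 (248 to 276) and Loxl1 at 152 (142 to 163) CPM. The 20 Pdgfra-Cre cells in cluster 8 had Fn1 at 4058 (3806 to 4324) and Loxl1 at 796 (686 to 918). In the Pdgfrb-Cre cells of the same cluster Fn1 was at 3844 (3784 to 3905), an interval that overlaps. Their Loxl1, at 581 (558 to 605), was lower, with an interval that does not. Leaving cluster 3 out, a step added after seeing the data, kept 43 Pdgfra-Cre cells, and 3 of the 8 genes remained called lower, namely Cthrc1 (log2 ratio -4.00), Postn (-2.06) and Tnc (-2.76). Fn1 (0.091) and Loxl1 (0.12) then turned to the other side of wild type by a small margin. Lox turned as well, to -0.96 from 0.33, and Sparc was at -0.95. With only the cells that had a UMI of Pi16 or Dpp4, markers of interstitial progenitors, Cthrc1 was at 338 (292 to 390), 7.46 (3.85 to 13) and 27.3 (22.9 to 32.3) CPM in 150, 149 and 423 cells. The Pdgfra-Cre log2 ratio of Postn was then -1.57 and that of Fn1 -1.46, both smaller than in all stromal cells, and Tnc had 1, 0 and 0 UMIs.

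**Figure D3:**
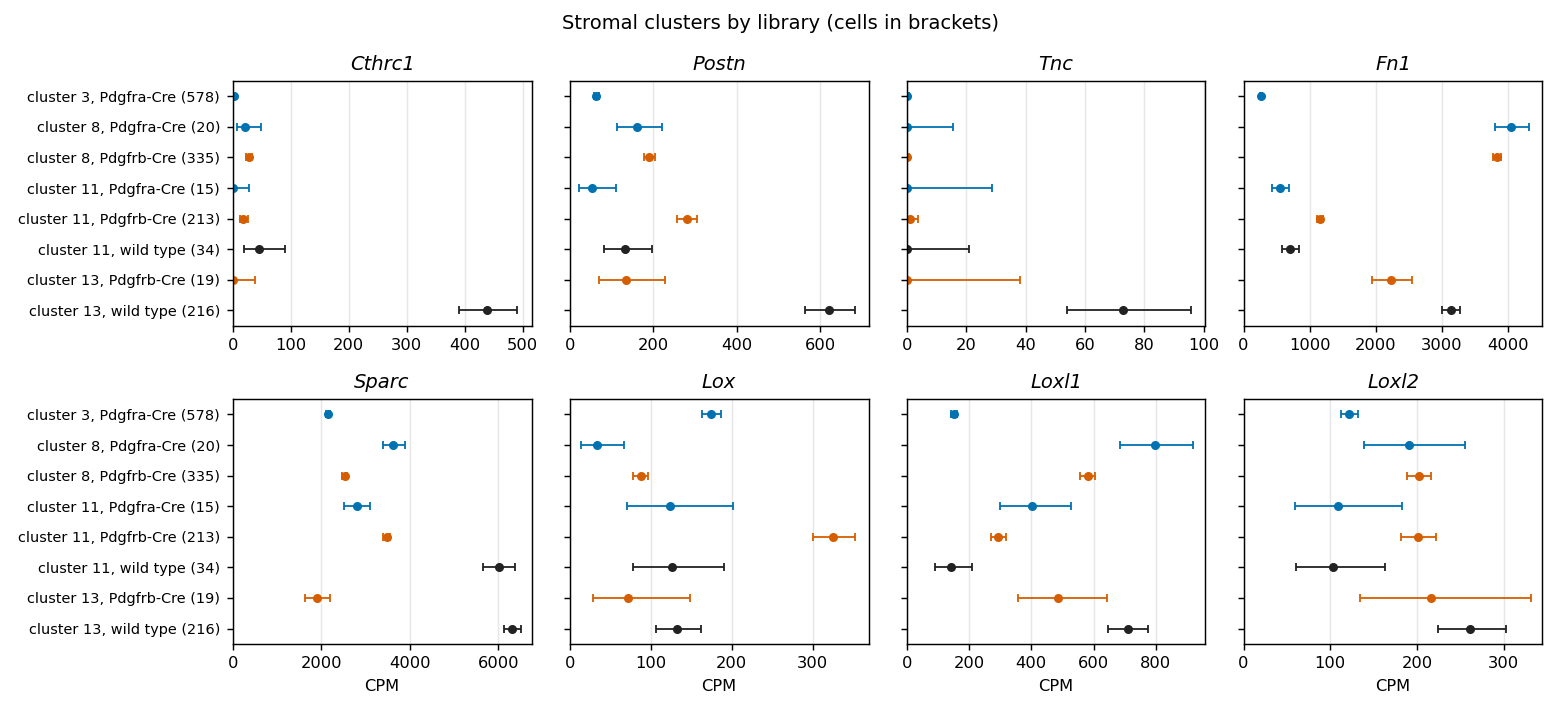
CPM of each gene in every stromal cluster and library with at least 10 cells, with 95% exact Poisson intervals; colours mark the libraries and numbers of cells are in brackets. Cthrc1 and Postn are highest in wild-type cluster 13, at 439 and 620, whereas Fn1 and Loxl1 are low in cluster 3 and high in cluster 8 of both Cre libraries.

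Dividing cells were defined as stromal cells with UMIs of at least 2 of Mki67, Top2a, Ube2c, Birc5 and Cdk1. By this rule 32 of 250 wild-type stromal cells were cycling, 12.8% (exact interval 8.92 to 17.6). Pdgfra-Cre had 0 of 621, which by a floor of 3 cells allows up to 0.483%. Pdgfrb-Cre had 1 of 573, although the cells of both Cre libraries were sequenced more deeply. All 32 wild-type cycling cells lay in cluster 13, with a median of 2672 UMIs against 1518 in the other 218 stromal cells. Cthrc1 ranged from 0 to 15 UMIs per cycling cell with a median of 4.5, and from 0 to 34 with a median of 0 in the others. It was seen in 28 of 32 cycling cells and 33 of 218 others, and after thinning in 81.3% against 9.78%. Its level was 1593 CPM (1356 to 1859) against 195 (165 to 229), 8.15-fold higher in cycling cells (6.48 to 10.3). The 32 cells thus gave 51.9% of all wild-type stromal Cthrc1 UMIs from 11.7% of the UMIs of the class. The other wild-type stromal cells, at 195 CPM, were still above the Cre libraries.

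Postn was at 1098 CPM (903 to 1323) in cycling cells against 445 (399 to 495), 2.47-fold higher (1.97 to 3.07), and was seen in 27 of 32 cells against 65 of 218. Tnc was at 158 against 44.6 CPM, but 16 UMIs in 2 cycling cells stand against 34 in 2 others, and the cell with 33 UMIs had 1 cycling gene, so the direction turns with the rule: the log2 ratio was 1.62 at 2 genes and -2.88 at 3. Loxl1 was lower in cycling cells, at 287 (192 to 412) against 635 (580 to 694) CPM, and seen in 15 of 32 against 106 of 218 cells. Its log2 ratio of -1.12 was within 2-fold after thinning (-0.76), as a mean over cells (-0.81), with 1 cycling gene as the line (-0.37) and without stromal cells over 10000 UMIs, left out after the data were seen (-0.74). Fn1 at 2830 against 2621, Sparc at 6955 against 6161, Lox at 208 against 121 and Loxl2 at 406 against 206 CPM lay within 2-fold by the rule. In all, 3 of the 8 genes were higher and 1 lower in cycling cells, where 21.2% of 3674 genes were higher and 12.9% lower. The median log2 ratio over the 8 genes was 0.84. Genes as a whole shifted upward by 0.33 on the log2 scale, and with median-of-ratios size factors, which take that shift out, the higher share of all calls went from 62.1% to 40.9%, and among the 8 Cthrc1 (2.64) and Tnc (1.33) were higher and Loxl1 lower, while Postn, at 0.96, was within 2-fold.

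The rise of Cthrc1 did not depend on where the line was drawn. By the number of the 5 cycling genes seen in a cell, from none to all 5, Cthrc1 was at 146, 738, 1135, 1674, 2027 and 1510 CPM in 207, 11, 9, 8, 9 and 6 cells. The 11 cells just outside the rule held 47 Cthrc1 UMIs, 34 of them in 1 cell of 30471 UMIs, and the 9 cells just inside held 24. Bins of this size are wide in their intervals, and the cells with 2 to 5 cycling genes overlap one another.

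**Figure D4:**
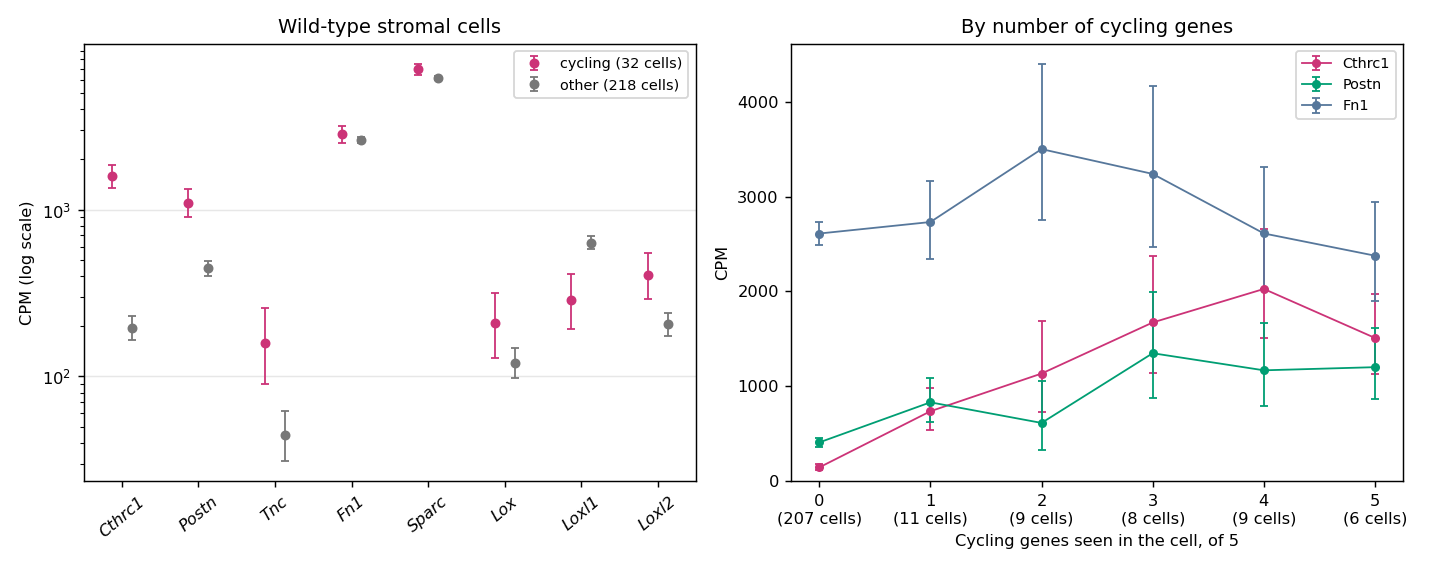
Left, CPM on a log scale of the 8 genes in 32 cycling and 218 other wild-type stromal cells; right, the level of Cthrc1, Postn and Fn1 by the number of cycling genes seen in a cell, with numbers of cells below. Bars are 95% exact Poisson intervals; Cthrc1 lies at 146 in cells with no cycling gene and above 1000 in cells with 2 or more, while Fn1 shows no such step.

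The cycling wild-type cells differed from the other stromal cells in stromal markers too. Of the 13, 7 were lower past 2-fold and none was higher, where 12.9% of 3674 genes were lower and 21.2% higher. Lum, Col1a2 and Col3a1 were above 1-fold with their intervals. Pi16, the interstitial progenitor marker, was at 49.5 against 2248 CPM and seen in 2 of 32 cells against 138 of 218, 45.5-fold lower (19.4 to 140). Gsn was at 574 against 10823 CPM, while Pdgfra, at 425 against 416, did not differ beyond counting error. Ptprc, the pan-leukocyte gene, was at 69.3 against 66.9 CPM, and Pecam1 of endothelium and Rgs5 of pericytes had 0 UMIs in the 32 cells. The 1 cycling Pdgfrb-Cre cell, with 26336 UMIs, all 5 cycling genes and no UMI of Pi16 or Dpp4, was the cell with 196 Postn UMIs and had 2 of Cthrc1. In wild-type mural cells, 8 of 178 were cycling, and Cthrc1 had 0 UMIs in them and 7 in the other 170.

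Cthrc1 and Postn were found in the same wild-type cells. Among 216 thinned stromal cells Postn was seen in 72.7% of the 44 with Cthrc1 and 20.3% of the 172 without. In the cells that were not cycling it was seen in 12 of 18 with Cthrc1 and 32 of 166 without, so the pairing is also there outside division. Loxl1 had the opposite order, 22.7% against 34.3%, but 26 of the 44 cells with Cthrc1 were cycling. In the cells that were not cycling Loxl1 was seen in 5 of 18 (27.8%) and 57 of 166 (34.3%), a smaller gap. Tnc was seen in none of the 44 and in 1.74% of the 172. These are cells of 1 library and share its depth and preparation.

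Mural cells showed little of this. There were 178, 32 and 43, with medians of 2150, 6552 and 11509 UMIs. Postn was at 207 (175 to 244), 270 (220 to 328) and 280 (240 to 324) CPM, with none of the stromal drop. These intervals overlap, but those of the ratios to wild type lie above 1. Postn was 1.30 times wild type in Pdgfra-Cre (1.0006 to 1.69) and 1.35 times in Pdgfrb-Cre (1.08 to 1.69). Single cells carry part of this: 1 cell held 25 of the 102 Pdgfra-Cre UMIs and 1 cell 59 of the 177 Pdgfrb-Cre UMIs. The highest wild-type cell held 10 of 145. Fn1 was at 122 (97.1 to 150), 124 (91.4 to 165) and 139 (112 to 171), with intervals that overlap. Sparc was at 2109 (2003 to 2219), 2038 (1896 to 2187) and 1311 (1224 to 1404), lowest in Pdgfrb-Cre. Cthrc1 had 7, 9 and 9 UMIs, or 10.0 (4.02 to 20.6), 23.8 (10.9 to 45.2) and 14.2 (6.50 to 27.0) CPM. Tnc had 9, 6 and 3 UMIs, Lox 23, 10 and 24, Loxl1 7, 1 and 7 and Loxl2 21, 20 and 13. With these counts only 4 of the 8 genes in Pdgfra-Cre and 3 in Pdgfrb-Cre reached 50 CPM in either library, and none of them passed 2-fold. Over all genes 4.31% were lower and 4.95% higher in Pdgfra-Cre, and 3.41% lower and 5.1% higher in Pdgfrb-Cre. The 13 stromal markers summed to 1813, 1882 and 1186 CPM in the mural classes against 54090, 61500 and 46650 in the stromal classes. The 9 endothelial markers summed to 3510, 3840 and 4758, and the part of these cells in the mural levels was not tested.

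The neighbouring matrix genes are counted beside shares over all genes of 7.4% lower and 11.7% higher in Pdgfra-Cre and 4.21% and 10.4% in Pdgfrb-Cre stroma, and counts such as 1 of 10 or 1 of 11 lie near these. Of 14 fibrillar and associated collagens, 12 were compared in Pdgfra-Cre and 8 were lower, with Col3a1 at 1847 against 12800, Col1a1 at 899 against 8293 and Col1a2 at 1898 against 7241 CPM, and none was higher. In Pdgfrb-Cre 2 of 12 were lower, Col1a1 at 2692 and Col3a1 at 5049 CPM, and none was higher. Of 15 genes of matrix processing and cross-linking other than the 3 above, 11 were compared in Pdgfra-Cre. There Serpinh1, the collagen chaperone, was at 834 against 1090 CPM and Pcolce, an enhancer of procollagen cleavage, at 381 against 593, both within 2-fold. Pcolce2 was lower, at 135 against 711, and Plod2, named after its value was seen, was higher, at 82.7 against 32.4. In Pdgfrb-Cre 1 of 10 was lower, Pcolce at 290 CPM, and none higher.

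The matricellular relatives moved both ways. In Pdgfra-Cre 3 of 12 compared were lower and 4 higher: Fbln2 at 955 against 393 CPM, Sparcl1 at 1197 against 145 and Smoc2 at 609 against 81.1 were among the higher. In Pdgfrb-Cre 2 of 12 were lower and 3 higher, with Sparcl1 at 408 and Smoc2 at 284 CPM among the higher. So Sparcl1, a close relative of Sparc, and Sparc itself lay on opposite sides of wild type in both Cre libraries. Of the integrin and syndecan receptors, 1 of 6 was lower in Pdgfra-Cre and 2 of 7 higher in Pdgfrb-Cre, Cd44, a hyaluronan receptor, at 313 against 71.8 CPM and Itga5, a fibronectin receptor subunit named after its value was seen, at 60.7 against 20.9. Of the TGF-beta pathway and myofibroblast genes, 2 of 10 were lower in Pdgfra-Cre, the receptor Tgfbr2 at 153 against 433 CPM and the ligand Tgfb2 at 42.1 against 129, and 2 were higher. The contractile genes Acta2 and Tagln were at 12.7 and 16.2 CPM in wild-type stromal cells. They were at 1.23 and 6.31 in Pdgfra-Cre and 0.814 and 3.09 in Pdgfrb-Cre, all under the level set for a call. Myl9, a contractile gene named after its value was seen, went the other way in Pdgfra-Cre, called higher at 76.7 against 32.4 CPM. In Pdgfrb-Cre Myl9 was at 13.7 CPM, under that level, and of 10 genes of this list compared none was lower and 1 higher. No Wnt planar polarity gene passed 2-fold among the 2 and 3 compared in the Cre libraries.

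In the cycling wild-type cells, where 21.2% of all genes were higher and 12.9% lower, 4 of 13 collagens compared were higher, Col1a1 at 17690 against 7047 CPM among them, and none was lower, with Col3a1 at 19740 against 11880. Of the matricellular relatives 2 of 11 were higher and 4 lower, with Nov at 1840 against 144 CPM and Thbs2, a thrombospondin, at 752 against 163 as the higher ones. Of the TGF-beta and myofibroblast genes 3 of 11 were higher and 5 lower. Lrrc15, a marker of matrix-making fibroblasts, was at 188 against 5.25 CPM and is named after its value was seen, while Fap, the fibroblast activation protein, was lower at 19.8 against 72.2. Of 11 processing genes 2 were higher and 1 lower, of 7 receptors 2 higher and 1 lower, and of 3 Wnt planar polarity genes none higher and 1 lower, Wnt5a at 19.8 against 70.8 CPM. The cycling cells hold 101074 UMIs, where 5 UMIs are 49.5 CPM, so their Fap and Wnt5a values rest on fewer than 5 UMIs each.

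Across the other classes, T and B cells had every one of the 8 genes at 13.3 CPM or less. Outside stroma and mural cells, Fn1 was at 37.3, 422 and 693 CPM in the macrophage-like cells, in 3 of 58, 14 of 59 and 54 of 114 cells, lowest in wild type. Endothelial cells had Sparc at 2093, 1632 and 1921 CPM, Fn1 at 223, 68.4 and 30.2, and Tnc at 5.40, 11.4 and 44.4, the last in 39 of 194 cells. Of the 206 wild-type Fn1 UMIs, 79 lay in 1 cell. The class differed in makeup: cluster 15 gave 169, 27 and 25 of its 274, 108 and 194 cells and cluster 16 gave 18, 61 and 131. Cluster 9, with 276, 15 and 8 cells and endothelium as its candidate, stayed unnamed and is not counted here. The part of this makeup was not tested. The 123 mesothelial-like cells of the Pdgfra-Cre library had Sparc at 1489, Loxl1 at 81.6, Loxl2 at 75.2 and Lox at 63.8 CPM and almost no Fn1, at 2.30. Over 23 sums of a class in a library with at least 50 cells, and among 6885 genes, the levels most like that of Cthrc1 were those of H19 (Pearson r of log2 CPM 0.97), Cxcl5 (0.96), Duoxa1 (0.94), Gm26523 (0.91) and C1s2 (0.90), all highest in wild-type stroma, a single sum that can carry such an r. For Postn they were Aspn (0.99), Pdgfrb (0.94), Prrx1 (0.94), Igfbp3 (0.93) and Tgfb2 (0.93). Sums of 1 library share its depth and free RNA, and these correlations are a description.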

How the data were processed

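The authors deposited UMI counts per gene and cell barcode, not normalised, made with Cell Ranger 3.1.0 and STAR 2.6 on mm10 per the submitters' processing notes. The labels' protocols give a dead-cell and red-cell depletion and 10x 3′ v3 chemistry. Filters asked for 500 genes or more and 15% mitochondrial UMIs or less. Scrublet ranked doublet scores, and the top 0.8% per 1000 cells were left out (60, 16 and 130). Cells were clustered in scanpy 1.11.5 (2000 variable genes, 30 components, 15 neighbours, Leiden resolution 1) without the 8 genes, cell-cycle, histone, mitochondrial, ribosomal, Y-linked genes or Xist. Classes were named by RNA markers. UMIs were summed per class and library as CPM with exact Poisson intervals, and ratios carry exact conditional binomial intervals (scipy 1.17.1). Fold calls and intervals were tested on simulated Poisson counts drawn from class means. Such counts lack the clumping of UMIs in single cells, so the test cannot show how the intervals hold under it. The 8 genes and the lists were chosen with earlier results of these data known. Named genes are the 8, the 5 most like Cthrc1 and Postn, and the highest-level genes of each list. Up to 18 alternatives per comparison were tried, among them 12 planned for all. A listed gene that was counted is not reported by name here.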

Additional observations from a re-analysis of the deposited data

How the results depend on the processing

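With 1 library per genotype, no result below or above measures variation between animals, and the shallow wild-type stromal cells limit genes with few UMIs. No paired analysis was possible because each genotype is 1 library. Of the counts of genes past 2-fold, those in stromal cells of Pdgfrb-Cre (3 to 4 lower) and in cycling wild-type cells (3 to 5) stayed within 1.5 times under the alternatives run, as did that of Pdgfra-Cre (5 to 6), except that without cluster 3, an alternative chosen after seeing the data, it was 3. In mural cells of Pdgfra-Cre the count was 1 in place of 0 for the mean over cells of the per-cell CPM and 1 for cells thinned to 1000 UMIs; it was 0 in Pdgfrb-Cre under each alternative. Directions turned for Fn1 (0.091), Loxl1 (0.12) and Lox (-0.96, from 0.33) in Pdgfra-Cre stroma without cluster 3, because the other Pdgfra-Cre cells lie in clusters with other levels. For Tnc in cycling cells the log2 ratio was -0.58 under the stricter cell filter (1000 genes, 10% mitochondrial UMIs) and -2.88 with at least 3 of 5 cycling genes, since 1 or more of its 4 cells leave the groups. The log2 ratio of Cthrc1 ranged from -6.63 to -4.00 in Pdgfra-Cre, -4.52 to -2.57 in Pdgfrb-Cre and 2.64 to 3.50 in cycling cells. Of all values under the alternatives, 539 stayed within the limits set (counting error, or 1.5 times for a count). A further 73 moved beyond them, and 4 others, of Fn1, Loxl1 and Tnc, were counted as reversed. The sign changed in 37, 33 of them for values not past 2-fold as reported. The alternatives without cycling cells or without the 2 cells rich in Tnc took Tnc under the level set for a call. Its log2 ratio in Pdgfra-Cre was -2.45 in the first and -0.56 in the second, and both left 5 genes lower in Pdgfra-Cre and 3 in Pdgfrb-Cre. Wild-type Tnc was also under that level as a mean over cells (27.4 CPM) and after thinning (27.8). It was at 1.77 CPM in cells with a UMI of Pi16 or Dpp4 and 20.2 without cells with a UMI of Wt1 or Tcf21. After thinning 6 genes were still lower in Pdgfra-Cre, with Loxl2 in place of Tnc.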

Other observations

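Within the mural class, Lox was found with Myh11, the smooth muscle myosin. In wild type, Lox had 23 UMIs, 41.6 CPM (26.4 to 62.4), in the 118 cells with a UMI of Myh11 and 0 UMIs in the 60 without, where 3 UMIs would be 20.5 CPM. Postn was at 186 (152 to 226) against 287 (207 to 388) CPM and Sparc at 1887 (1775 to 2005) against 2947 (2675 to 3238). The part of depth was not tested. These splits were chosen after the levels were seen.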
